A study of Mus musculus with 12 samples.

Results

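The regions described here are stretches of chromatin called as marked by H3K27ac within 1 kb of either end of a protein-coding gene in newborn mouse hearts. Called regions of 6 hearts on the 19 autosomes were joined wherever they shared at least 1 bp, which gave 77817 union regions. A union region was kept as a gene end region when it lay within 1 kb of the first or last base of a protein-coding gene in the RefSeq table of GRCm38.p6, the assembly also called mm10. This kept 13720 union regions, 17.6% of all. Another 40177 regions lay inside a gene away from its ends, 14924 lay between genes within 50 kb of a gene, and 8996 lay farther away. No measured value entered this choice. Each heart's calls took the class of their union region. A call counted at a gene end could itself lie more than 1 kb from that end. A gene end was taken as called or marked in a heart when that heart had a call in a union region within 1 kb.

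H3K27ac ChIP-seq had been run on whole hearts at postnatal day 0, with 3 wild-type hearts (WT, numbered 1, 3 and 4) and 3 hearts of cardiomyocyte-specific RXRab-/- newborns (edKO, numbered 1, 3 and 6). The edKO hearts lack the retinoid X receptor genes Rxra and Rxrb in cardiomyocytes, while the other cells of the heart keep them. The driver of the deletion is not given in the sources used here. Each heart was an individual newborn, fixed with DSG and formaldehyde, and gave its own list of called regions. Fewer cells carrying the mark and less of the mark per cell cannot be told apart in whole hearts.

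Acetylation of lysine 27 of histone H3 marks nucleosomes beside active promoters and enhancers. At an active gene the mark flanks the transcription start, where a nucleosome-depleted stretch holds the transcription machinery, and extends into the transcribed side. Broad domains of the mark lie over genes that define a cell type, such as contractile protein genes in the heart, while housekeeping genes usually carry a compact domain at a CpG-rich promoter.

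Sequences before the start are shown for 7 genes at which the later results turn: the 3 gene ends called shorter in edKO hearts, 2 marked only in WT hearts, the CpG-rich promoter with a very high rank in every list, and the widest region. Each line gives 250 bases up to the base before the start, 5′ to 3′ on the gene's strand, from the RefSeq promoter table of GRCm38.p6. Capitals mark the nuclear receptor half-site AGGTCA or its reverse complement TGACCT.
Ucp3: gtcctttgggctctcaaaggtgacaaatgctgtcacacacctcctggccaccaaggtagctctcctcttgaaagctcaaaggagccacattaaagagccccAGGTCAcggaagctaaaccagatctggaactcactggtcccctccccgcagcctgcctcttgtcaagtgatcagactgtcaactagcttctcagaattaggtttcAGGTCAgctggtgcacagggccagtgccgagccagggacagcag
Dnah6: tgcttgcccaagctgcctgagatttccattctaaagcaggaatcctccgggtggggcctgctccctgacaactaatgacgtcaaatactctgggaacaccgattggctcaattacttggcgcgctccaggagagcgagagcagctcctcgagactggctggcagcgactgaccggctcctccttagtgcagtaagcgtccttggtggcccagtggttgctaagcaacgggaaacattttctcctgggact
Hadha: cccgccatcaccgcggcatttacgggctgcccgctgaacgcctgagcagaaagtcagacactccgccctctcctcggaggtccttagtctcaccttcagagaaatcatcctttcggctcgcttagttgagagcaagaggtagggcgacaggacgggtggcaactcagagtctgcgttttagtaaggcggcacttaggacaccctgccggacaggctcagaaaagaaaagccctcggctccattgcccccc
Acot4: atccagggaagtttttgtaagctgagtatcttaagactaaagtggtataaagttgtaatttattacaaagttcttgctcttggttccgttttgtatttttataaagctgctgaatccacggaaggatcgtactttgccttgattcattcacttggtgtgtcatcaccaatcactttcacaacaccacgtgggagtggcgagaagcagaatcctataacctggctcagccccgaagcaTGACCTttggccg
Plin5: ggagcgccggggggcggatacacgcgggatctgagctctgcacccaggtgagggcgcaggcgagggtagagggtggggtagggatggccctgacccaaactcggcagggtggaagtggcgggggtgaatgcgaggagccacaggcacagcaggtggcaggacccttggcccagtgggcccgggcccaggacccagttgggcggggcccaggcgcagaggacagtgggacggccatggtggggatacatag
Sp3: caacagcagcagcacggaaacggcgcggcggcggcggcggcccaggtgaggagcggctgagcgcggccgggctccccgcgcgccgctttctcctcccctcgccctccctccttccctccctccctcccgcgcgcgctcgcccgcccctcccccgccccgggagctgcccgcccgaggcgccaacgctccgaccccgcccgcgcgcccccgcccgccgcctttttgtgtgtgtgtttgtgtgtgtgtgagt
Myh7: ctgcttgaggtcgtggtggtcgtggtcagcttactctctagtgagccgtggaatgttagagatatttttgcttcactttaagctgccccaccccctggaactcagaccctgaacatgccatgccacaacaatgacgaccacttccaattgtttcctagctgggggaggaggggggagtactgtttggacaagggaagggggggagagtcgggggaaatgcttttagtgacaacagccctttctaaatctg
These windows are chr7:100472741-100472990 on the plus strand for Ucp3, chr6:73221632-73221881 on the minus strand for Dnah6 and chr5:30154981-30155230 on the minus strand for Hadha. They are chr12:84038129-84038378 on the plus strand for Acot4 and chr17:56117299-56117548 on the minus strand for Plin5. For Sp3 the window is chr2:72979282-72979531 on the minus strand, and for Myh7 it is chr14:54994627-54994876 on the minus strand. Ucp3 held 2 half-sites, Acot4 held 1 and the other windows shown held none of these letters. Of the windows read but not shown, that of Zc3h4 held 1, and those of Acot2 and Hand2 held none. Zc3h4 lies at the highest ranked region, where no difference between genotypes was called. Over all 16457 autosomal genes with a table entry, taking the most marked start of each gene, 12.6% held the half-site in this window. The CpG ratio, the observed count of CG over that expected from the base composition, was 0.162 for Ucp3, 0.302 for Myh7, 0.746 for Hadha and 1.04 for Sp3.

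Gene end regions were wider and ranked higher than regions elsewhere in every heart. A gene end union region can hold several separate calls of the same heart. In the WT lists, 13884, 14534 and 15940 calls belonged to such union regions, and in the edKO lists 12653, 14344 and 15692. The median width of these calls was 1379, 1370 and 1094 bp in WT 1, 3 and 4 and 1646, 1115 and 1214 bp in edKO 1, 3 and 6. Regions inside genes had median widths from 450 to 801 bp. The lowest gene end value thus lay above the highest inside-gene value. The mean over hearts was 1303 ± 207 bp (SD, n = 6) at gene ends against 580.2 ± 129 bp inside genes. The within-heart difference of 723 ± 102 bp (SD, n = 6) had the same sign in 6 of 6 hearts (exact sign-flip permutation, two-sided, p = 0.031, the smallest that 6 hearts allow). The differences from regions between genes were 711 bp near genes and 756 bp far from them, each in 6 of 6 hearts.

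The fold enrichment of a region is the authors' value and was ranked only within its own list. Gene end regions sat at a median percentile of 81.7, 83.7 and 82.1 in WT 1, 3 and 4. The edKO lists gave 80.4, 78.3 and 84.0 for edKO 1, 3 and 6. The other 3 classes had medians between 37.1 and 45.5 in all hearts. Gene end regions held 2.03 ± 0.113 summits each (SD, n = 6), against 1.64 ± 0.0568 inside genes, 1.55 ± 0.0443 near genes and 1.48 ± 0.0459 far from genes. In all, 12 comparisons were made, of 4 measures against 3 classes, and each reached the exact p of 0.031, which adjustment over the 12 left at 0.031. For the measure of sharing over hearts, given below, the 6 values are not independent. A wide region is more likely to reach a gene end, so the classes were also assigned by the middle of each region. The width difference from regions inside genes was then 672 bp and that in percentile 40.2. The difference in summits was then 0.0483 (exact sign-flip permutation p = 0.28125), so the larger number of summits than inside genes was not seen under that assignment.

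**Figure D1:**
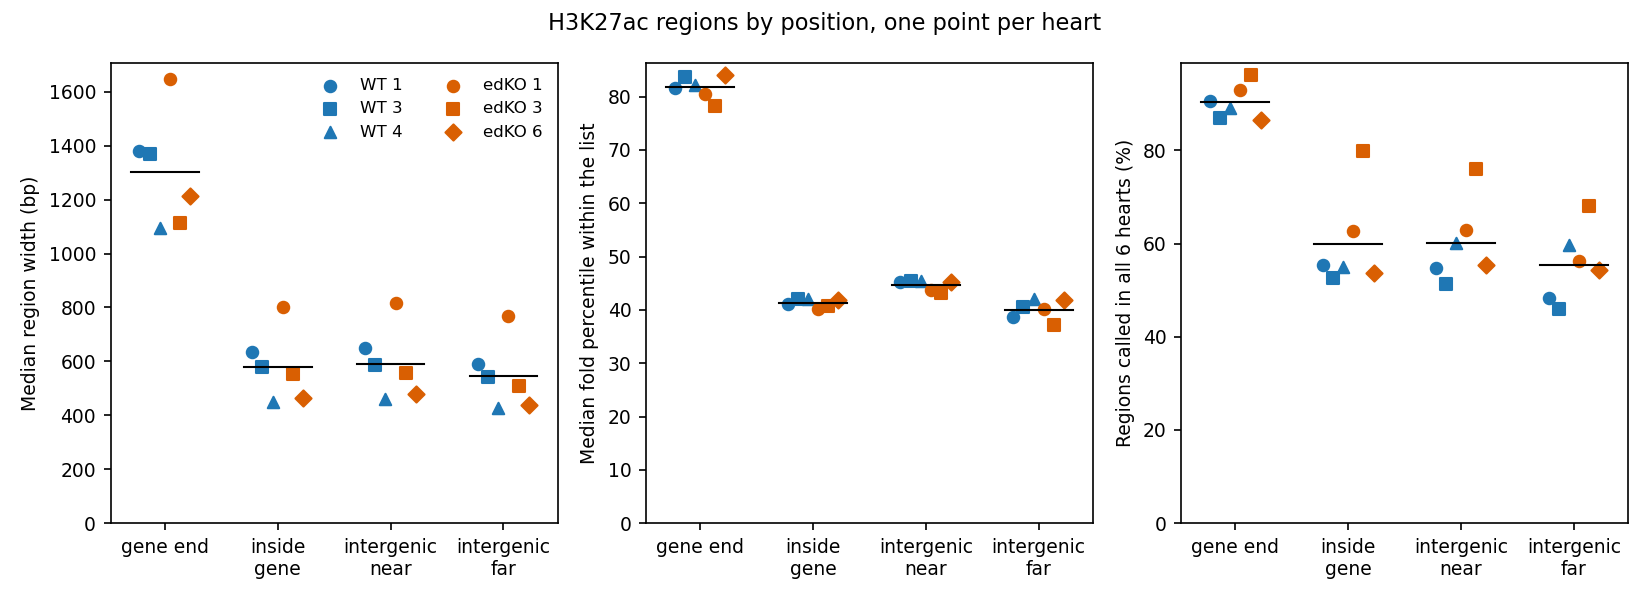
Median region width in bp, median fold percentile within the list and percent of regions called in all 6 hearts (y axes), for regions at gene ends, inside genes, between genes near them and far from them (x axis); each point is a heart and each line the mean of 6 hearts. In every heart the gene end value lies above the other 3 classes in each panel.

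Most gene end regions were called in every heart. Of the 13720, 10463 (76.3%) were called in all 6 hearts, 483 in 5, 400 in 4, 471 in 3, 573 in 2 and 1330 (9.69%) in 1 heart. Of all autosomal union regions 35.7% were called in all 6 hearts, and of those inside genes 26.4%. Within each list, 90.4 ± 3.70% (SD, n = 6) of the gene end regions belonged to a union region called in all hearts, against 59.9 ± 10.4% inside genes. The difference was 30.5 points, in 6 of 6 hearts (exact sign-flip permutation p = 0.031). The union regions called in all 6 hearts are the same for every list, so these 6 shares are not independent. This p therefore adds nothing to the counts of union regions. Single-heart gene end regions came mostly from the longer lists: 465 from edKO 6, 371 from WT 4, 264 from WT 3, 129 from WT 1, 82 from edKO 1 and 19 from edKO 3. Of the regions missing from 1 heart alone, 209 were missing from edKO 3 and 116 from edKO 1, the hearts with the shortest lists. The base pairs shared by a pair of hearts at gene ends, over those called in either, ranged from 75.2% to 84.0% within a genotype (6 pairs) and from 76.8% to 82.7% between genotypes (9 pairs). The ranges overlapped.

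**Figure D2:**
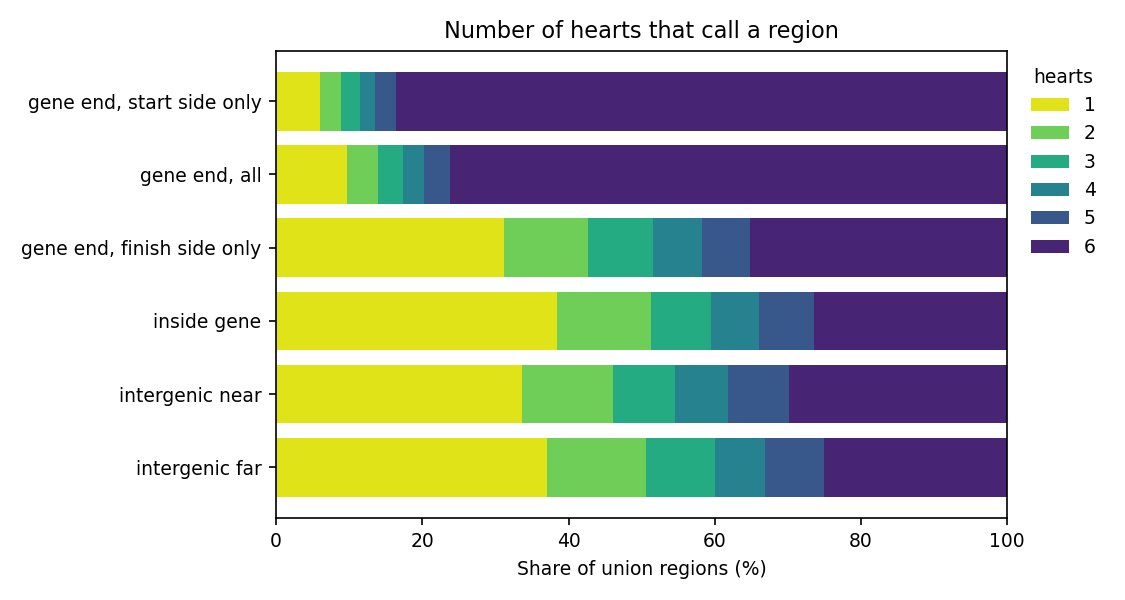
Share of union regions in percent (x axis) by the number of hearts that call them (colours), for gene end regions in all, those near a start only and those near a finish only, and the other 3 classes (rows). The part called in all 6 hearts takes 76.3% of gene end regions and 83.6% of those near a start only.

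The start of a gene carried the mark far more often than its finish. The strand was known for 16457 of 20665 autosomal protein-coding genes, and for none of the 511 on chromosome 18, so start and finish results leave that chromosome out. Of the gene end regions, 8130 lay near starts only, 1550 near finishes only, 880 near both and 2703 near genes of unknown strand only; 258, 156 and 43 joined an end of unknown strand to a start, a finish or both. All 6 hearts had a call in a union region within 1 kb of the start at 8678 genes (52.7%). For the finish this held at 1602 genes (9.73%). Both ends were called in all hearts at 1285 genes, while at 228 genes the finish was called in all hearts and the start in none. Regions near a start only had a median width of 1442, 1438 and 1196 bp in WT 1, 3 and 4 and of 1702, 1172 and 1318 bp in edKO 1, 3 and 6. Regions near a finish only had 727, 707 and 509 bp for WT and 910, 606 and 540 bp for edKO. The difference was 712 ± 81.1 bp (SD, n = 6), with the start side wider in 6 of 6 hearts (exact sign-flip permutation p = 0.031, adjusted over 4 measures 0.031). The median fold percentile was 84.7 ± 2.17 on the start side and 47.4 ± 1.41 on the finish side, a difference of 37.3 points in 6 of 6 hearts (same test and p). Finish-side regions were thus close in width and rank to regions inside genes, and 35.2% of them were called in all 6 hearts.

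Regions that covered an end differed from those beside it, though a wider region is also more likely to cover one. The 10210 regions that overlapped a first or last base of a gene had a median width of 1987 bp and 91.6% were called in all 6 hearts. The 1889 regions up to 400 bp away had a median of 607 bp, and 33.6% were called in all hearts. Just inside the 1 kb limit, 554 regions from 800 to 1000 bp away had a median of 579.5 bp, with 28.5% in all hearts. Just outside it, 524 regions from 1000 to 1200 bp away had a median of 534.5 bp, with 29.0% in all hearts. The values just inside and just outside the limit lay close together. Starts of genes on opposite strands shared 934 regions, and 2224 regions touched the ends of 2 genes. Whether the starts on opposite strands point away from each other was not checked.

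Summits lay on both sides of the start, with a dip over it and the larger peak inside the gene. For 7274 regions with 1 start of known strand and no other end, 16.1 ± 1.44% (SD, n = 6 hearts) of the summits within 2 kb fell from 200 to 300 bp after the start. From 200 to 300 bp before it the share was 6.81 ± 0.960%, and in the 100 bp before it 1.52 ± 0.168%. The strongest summit of a region lay a median of 244, 246 and 235 bp after the start in WT 1, 3 and 4 and 260, 248 and 241 bp after it in edKO 1, 3 and 6. It lay after the start in 82.7% to 85.2% of regions. Regions over the start reached a median of 464 to 636 bp before it and 911 to 1133 bp after it, and 82.8% to 84.9% of them were longer on the transcribed side. The WT and edKO ranges overlapped for each of these values.

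**Figure D3:**
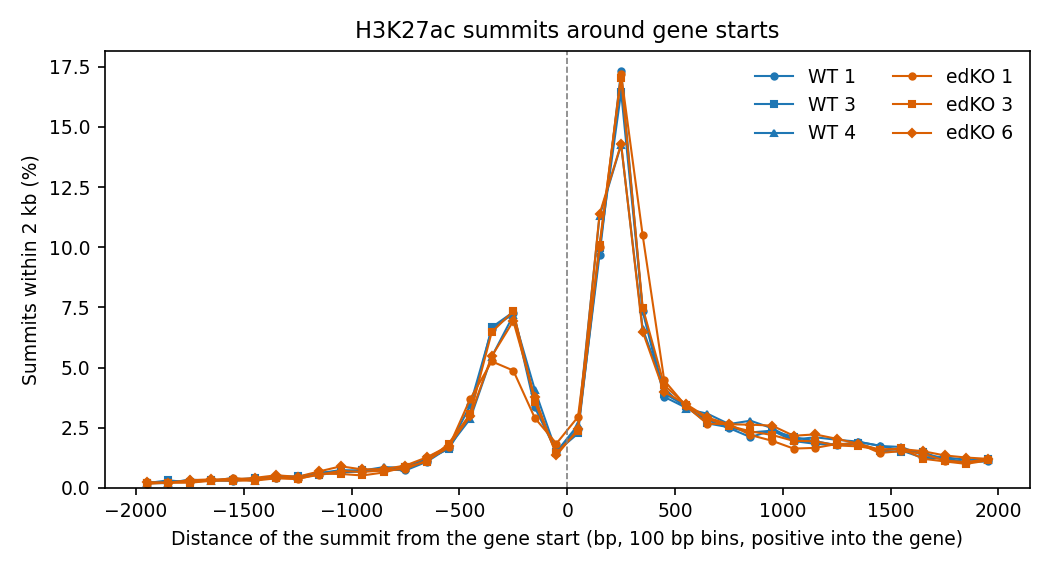
Percent of summits within 2 kb (y axis) in 100 bp bins of distance from the gene start, positive into the gene (x axis), one line per heart. All 6 lines dip just before the start and peak at 200 to 300 bp after it, where the mean is 16.1%.

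Marked starts were CpG-rich, with 1 start per gene taken, the most marked. The share of starts called in all 6 hearts rose from 9.58% of 3790 starts with a CpG ratio up to 0.2, through 28.9%, 60.0%, 80.1% and 89.5%, to 93.0% of 1314 starts with a ratio over 1. The median called length of those called in all hearts did not follow the ratio in this way, with 1938 bp in the lowest bin, 1596 bp from 0.4 to 0.6 and 1946 bp in the highest. At 1142 starts a CpG ratio under 0.4 went with a call in all 6 hearts. The longest called lengths among them were at Myh7 (cardiac beta myosin heavy chain), Pln (phospholamban, the brake on the calcium pump of the sarcoplasmic reticulum), Myh6 (alpha myosin heavy chain), Egfl7 (a secreted endothelial protein) and Depp1. Myl2 (ventricular myosin light chain), Mb (myoglobin), Ldb3 (a Z-disc protein), Tnnt2 (cardiac troponin T) and Actc1 (cardiac actin) were among the first 15, as were Pkig, Nmrk2, 1110002E22Rik, Zeb2 and Ablim1. These starts were listed by called length after the values were known.

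**Figure D4:**
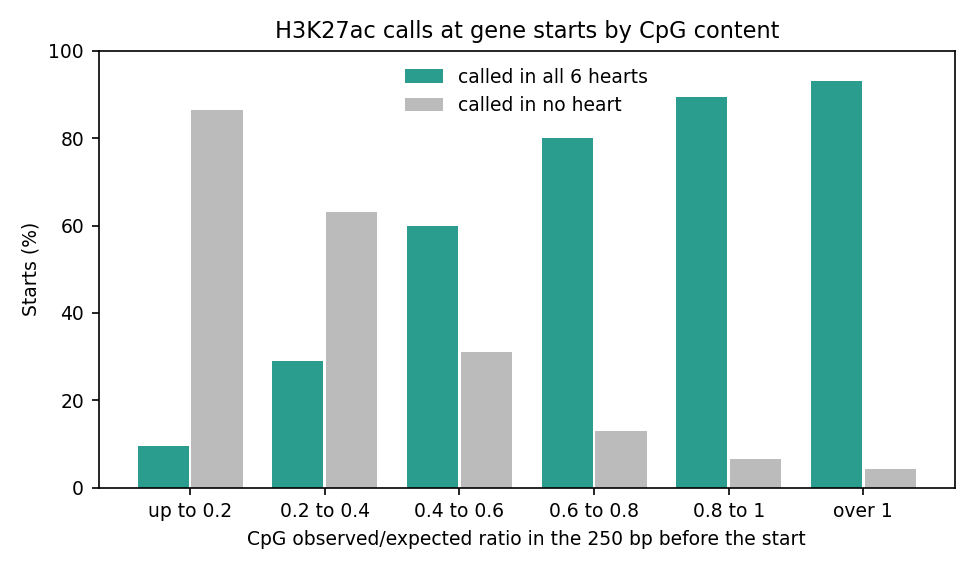
Percent of gene starts (y axis) called in all 6 hearts or in no heart, by the CpG observed/expected ratio in the 250 bp before the start (x axis), over 16457 genes with 1 start each. The share called in all hearts goes from 9.58% in the lowest bin to 93.0% in the highest.

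Short letter patterns before the start also differed between marked and unmarked genes. The GC box GGGCGG, on either strand, was present at 61.8% of the 9116 starts called in all hearts and at 16.9% of the 6390 called in none, against 43.7% of all starts. The ETS pattern CCGGAAG was present at 14.9% and 2.22%, against 9.39% of all. The TATA pattern TATAAA was present at 5.97% of the starts called in all hearts and 22.5% of those called in none, against 12.5% of all. The CCAAT box was present at 36.3% and 36.0%. The half-site AGGTCA was present at 9.63% and 16.7%. The direct repeat of 2 half-sites with 1 base between them, a pattern bound by RXR dimers, was found before 8 starts in all, of which 3 were called in all hearts. These are shares of windows that hold the letters and depend on base composition: the median GC content was 60.4% at starts called in all hearts and 47.2% at those called in none.

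Gene families differed in how often an end carried the mark. Of the 20665 genes, 11244 (54.4%) had a call in a union region within 1 kb of an end in all 6 hearts. In no heart was this so at 8037 (38.9%). Genes of the cytosolic ribosome with symbols Rpl and Rps were marked in all hearts at 71 of 76, those of the mitochondrial ribosome at 75 of 78, and complex I genes with symbols Nduf at 45 of 47. Proteasome genes with symbols Psm were marked at 35 of 39, and zinc finger genes with symbols Zfp at 298 of 388 (76.8%). Olfactory receptor genes with symbols Olfr were marked at 4 of 1104 (0.362%), vomeronasal receptor genes at 1 of 354, beta-defensin genes at 1 of 42, keratin genes at 3 of 53 and Hox genes at 2 of 39. Genes up to 5 kb long were marked at 30.1%, those of 5 to 20 kb at 57.7%, those of 20 to 100 kb at 64.9% and longer ones at 60.3%.

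Gene lists of metabolism and contraction were marked more often than the 54.4% of all genes, and so were lists of genes that most cells use. In the respiratory chain and ATP synthase list 32 of 33 autosomal genes were marked in all 6 hearts, in the tricarboxylic acid cycle 18 of 18, in fatty acid oxidation 27 of 29, in the cell cycle list 25 of 25 and in the list of sarcomere and calcium handling genes 31 of 33. The share was 19 of 22 for cardiac transcription factors, 19 of 22 for genes of fatty acid uptake and lipid storage and 20 of 25 for RXR, its partner receptors and coregulators. It was 30 of 30 for cytosolic ribosomal proteins, 27 of 28 for mitochondrial ribosomal proteins, 16 of 18 for glycolysis and 17 of 18 for widely used control genes. The length called at the ends differed between lists. The median per gene was 7808 bp for sarcomere and calcium handling genes and 7842 bp for cardiac transcription factors, against 2053 bp for cytosolic ribosomal proteins, 1228 bp for mitochondrial ribosomal proteins and 1850 bp over all marked genes. In the tricarboxylic acid cycle, Idh2 (mitochondrial isocitrate dehydrogenase) had the longest called ends, 12194 ± 966 bp (SD, n = 6), and Suclg2 (a subunit of succinyl-CoA ligase) the shortest, 854 ± 160 bp. In fatty acid oxidation the longest were at Acadl (long-chain acyl-CoA dehydrogenase), 5782 ± 233 bp, and at Cpt1a (the carnitine transferase of the outer membrane), 5320.5 ± 440 bp. Among glycolytic genes Pkm (pyruvate kinase) led with 8992 ± 792 bp, and among respiratory chain genes Atp5d (the delta subunit of ATP synthase) with 8921 ± 402 bp. The finish of Atp5d was called in 6 hearts and its start in 5.

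Markers of the cell types of the heart were present beside those of cardiomyocytes. All 10 cardiomyocyte markers and all 10 fibroblast markers had a marked end in all 6 hearts, as did 9 of 10 endothelial, 5 of 8 smooth muscle and pericyte, 2 of 9 epicardial, 3 of 10 leukocyte, 1 of 8 erythroid and 3 of 8 neural and Schwann markers. Of 13 autosomal genes of liver and brain, 2 were marked in all hearts, Apoa2 and Ttr, and 11 in none. The widest fibroblast marker was Tcf21 with 5231 ± 635 bp, and the widest endothelial marker was Egfl7 with 20488 ± 1003 bp (SD, n = 6). Some heart genes lacked a mark within 1 kb of either end while another start inside the gene carried it. Mef2c, a cardiac transcription factor, had no called end, and its most marked start, 69.6 kb inside the gene, had 9138 bp called on average in all 6 hearts. The same held for Myl4 (atrial myosin light chain), Ldha (lactate dehydrogenase A), Hk1 (hexokinase 1) and Erg (an endothelial ETS factor). In all, 407 of 6433 genes with known strand and no called end had an inner start called in all 6 hearts.

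Contractile protein genes and cardiac transcription factors were among the 8 widest gene end regions, beside genes of other cells and roles. The widest union region spanned 29436 bp over the start of Myh7, at chr14:54981747-55011182. Its called length was 28682, 27313 and 26369 bp in WT 1, 3 and 4 and 28826, 24375 and 27730 bp in edKO 1, 3 and 6. The WT and edKO values overlapped. Next came Hand2 (a transcription factor of the developing ventricles) with 28004 bp, Hspg2 (the basement membrane protein perlecan) with 27735 bp and the Myh6 start with the Myh7 finish, 23807 bp. Depp1 with Rassf4 spanned 23299 bp, Pln 23205 bp, Egfl7 22282 bp and Tbx20 (a cardiac T-box factor) 21117 bp. The median gene end region, by contrast, spanned 1726 bp, and 5% were wider than 5101 bp. Of the 100 widest autosomal regions 56 were gene end regions, and of the 1000 widest 447 (44.7%), where gene end regions make up 17.6% of all.

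The regions of highest fold percentile lay at other genes than the 8 widest ones. The 6 highest were at Zc3h4 (a zinc finger protein that limits noncoding transcription), Sp3 (a factor that binds GC boxes), Dyrk1a (a protein kinase), Trim8 (a ubiquitin ligase), Kmt2e (a chromatin regulator of the trithorax family) and Lpxn with Zfp91, each with a mean percentile of 99.9. At Sp3 the called length was 4241, 4483 and 4020 bp for WT and 4457, 3995 and 4510 bp for edKO, within a union region of 4585 bp. The union regions of the other 5 spanned 8646 bp at Zc3h4, 7194 bp at Trim8, 7155 bp at Kmt2e, 5454 bp at Dyrk1a and 4329 bp at Lpxn with Zfp91. All 6 were wider than the median gene end region, and none was among the 8 widest. The Sp3 window printed above holds the GC box, and the Myh7 window does not.

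The genotypes did not separate in any summary of gene ends. Median width was 1281 ± 162 bp for WT and 1325 ± 282 bp for edKO (SD, n = 3 each; exact permutation, two-sided, p = 0.8). Summits per region were 2.09 ± 0.0361 and 1.97 ± 0.140 (exact permutation p = 0.4). Gene ends took 24.2 ± 0.524% of the WT lists and 26.9 ± 3.37% of the edKO lists (exact permutation p = 0.3). The share of genes with a called end was 57.4%, 59.0% and 58.1% in WT 1, 3 and 4, against 56.4%, 55.8% and 59.3% in edKO 1, 3 and 6 (exact permutation p = 0.5). A call in a union region within 1 kb counted, even where that call lay farther off, as in edKO hearts at Ucp3. Adjusted over these 4 measures, p lay between 0.667 and 0.8, and 3 hearts against 3 cannot go below 0.1. Read depth per heart is not given in the sources used here, and the lists differed in length, from 46967 to 66532 autosomal regions. With lists of equal length the edKO minus WT difference was -14.5 bp in median width (exact permutation p = 1), against 44.0 bp with the lists as deposited. It was then 0.348 percentage points in the share of the list (exact permutation p = 0.8), against 2.78 points.

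A few gene ends lost called length in edKO hearts. The called length of each union region was compared with limma, fitted on 31066 autosomal regions with a mean of at least 500 bp, of which 10620 were gene end regions, 77.4% of the members. At an adjusted p of 0.05, 3 gene end regions were shorter in edKO and 0 were longer. Over all regions tested, 21 were shorter (0.0676%) and 0 longer (0%). At an unadjusted p of 0.05, 136 gene end regions (1.28%) were shorter and 189 (1.78%) longer, and over all regions tested 1275 (4.10%) were shorter and 481 (1.55%) longer. The genotypes did not overlap, with all edKO hearts lower, at 402 gene end regions (3.79%), where the share over all regions tested was 7.12%. With all edKO hearts higher the count was 137 (1.29%), against 1.14%. The median log2 difference, edKO minus WT, was 0.06 at gene ends and 0.02 over all regions tested, and without centring the hearts it was -0.01 at gene ends. The differences below are of log2(called bp + 200), which understates the change where little was called.

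At Ucp3, a mitochondrial uncoupling protein of muscle that fatty acids induce, the called length was 2208, 3024 and 3527 bp in WT 1, 3 and 4. In edKO 1, 3 and 6 it was 437, 368 and 360 bp. All WT hearts lay above all edKO hearts, and the log2 difference fell by 2.32 (SE 0.225, limma adjusted p = 0.0397). In each WT heart a called piece covered the start at position 100472991. In the edKO hearts the single piece left began at 100474834, 100474789 and 100474692, inside the gene. Its fold percentile was 27.7, 5.34 and 35.4 in the edKO hearts, and the highest piece in each WT heart stood at 81.7, 87.1 and 86.1.

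At the divergent start of Hadha and Hadhb, the subunits of the mitochondrial trifunctional protein of fatty acid oxidation, 5969, 6003 and 6336 bp were called in WT hearts, while edKO hearts had 2706, 2459 and 2355 bp. The log2 difference fell by 1.15 (SE 0.122, limma adjusted p = 0.0447). The rank of the region did not follow its length: the fold percentile lay between 98.1 and 99.7 in the WT lists and between 97.9 and 99.8 in the edKO lists. Summits numbered 7, 7 and 9 in WT against 1, 2 and 2 in edKO. The called stretch in edKO began at 30153751, 30154053 and 30154095, where that in WT began at 30151130, 30151076 and 30151068, on the Hadha side of its start at 30154980. On the Hadhb side the WT calls reached 30157423, 30157610 and 30157403 and the edKO calls 30156456, 30156511 and 30156449. At Dnah6, a dynein heavy chain of cilia, 3550, 3354 and 2974 bp were called in WT hearts, while edKO hearts had 1896, 1177 and 1337 bp. The log2 difference fell by 1.02 (SE 0.107, limma adjusted p = 0.0447), with no overlap of the genotypes.

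The 3 calls did not hold with every heart left out. Without WT 1, WT 3 or WT 4, limma called 0 gene end regions shorter. Without edKO 1 it called 4, Dnah6 among them, without edKO 3 it called 4, Hadha with Hadhb among them, and without edKO 6 it called 1, none of the 3. Joining regions up to 500 bp apart, peaks with a −log10 q of at least 5, equally long lists or 50 bp added in place of 200 each gave 0. The log2 difference stayed between -2.52 and -1.52 at Ucp3, -1.24 and -0.93 at Hadha and Hadhb, and -1.54 and -0.96 at Dnah6 when each heart was left out in turn. A region over Xist was called in WT 1 and edKO 6 only, and with a term for it limma called 0.

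The next 7 gene ends with separated genotypes did not pass the adjusted threshold. Acot2, a mitochondrial acyl-CoA thioesterase, had 3345, 3445 and 3002 bp for WT and 1937, 1620 and 1507 bp for edKO (log2 difference -0.81, limma adjusted p = 0.0861). Vwa8, a mitochondrial ATPase, had 3343, 3660 and 3751 bp for WT and 1633, 1471 and 1796 bp for edKO (-0.98, adjusted p = 0.0861). Synpo2, a Z-disc protein, Ndufs4, a complex I subunit, Rmc1 and Cd36, the fatty acid translocase, had log2 differences of -0.83, -0.66, -2.88 and -0.49, with limma adjusted p from 0.157 to 0.162. The Ndufs4 region lay at the finish of the gene. At Cd36 the values were 3670, 3747 and 3414 bp for WT and 2790, 2049 and 2355 bp for edKO. A region 659 bp from the finish of Tspan3 was called in all WT hearts, with 1948, 1793 and 2230 bp, and in no edKO heart (limma adjusted p = 0.0835).

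The 6 regions with the smallest p in the other direction all had adjusted p over 0.3. Vamp5, a SNARE protein of muscle, had 1789, 1554 and 1684 bp for WT and 2709, 2232 and 2297 bp for edKO (log2 difference 0.54, limma adjusted p = 0.354). Ift122 with Mbd4, Rell1, Tmod3 (an actin-capping tropomodulin), Wipi1 (an autophagy protein) and Slc24a2 (a sodium, calcium and potassium exchanger) had differences from 0.37 to 0.53, with adjusted p from 0.385 to 0.420. In each of the 6 the lowest edKO heart lay above the highest WT heart.

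**Figure D5:**
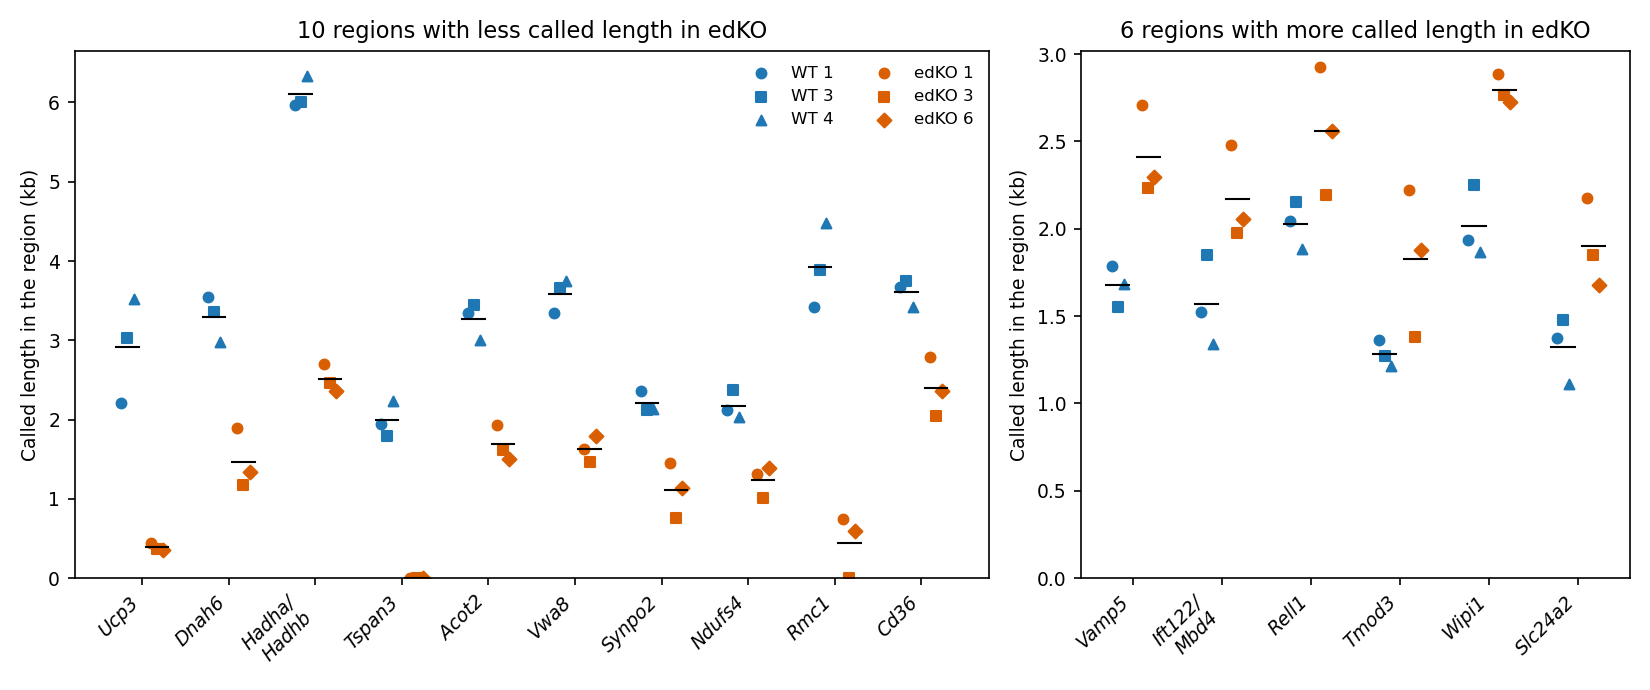
Called length in kb (y axis) of the 10 gene end regions with less and the 6 with more called length in edKO (x axis), each point a heart and each line the mean of 3. The genotypes do not overlap at any of the 16, which is how they were chosen; Ucp3, Dnah6 and Hadha with Hadhb passed the adjusted threshold.

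By pathway, the counts of separated gene ends differed. The fatty acid oxidation list had 30 regions tested, of which 1 was called shorter and 17 had all edKO hearts below all WT hearts, with a median log2 difference of -0.21. Genes of uptake of fatty acids and storage of lipid had 1 called, Ucp3, and 9 separated of 20, with a median of -0.07. Over all regions tested the separated share was 7.12% and the median 0.02. The list of respiratory chain and ATP synthase genes had 0 called and 0 separated of 37 (median 0.06). That list does not hold Ndufs4, the complex I subunit with separated genotypes described above. Mitochondrial ribosomal proteins had 0 separated of 29 (0.04), the tricarboxylic acid cycle 2 of 19 (-0.01), glycolysis 2 of 19 (-0.02) and the cell cycle 1 of 29 (0.06). Cardiac transcription factors had 4 of 25 with all edKO hearts lower (0.005), and sarcomere and calcium handling genes 3 of 40 (-0.01). The count was 1 of 26 for RXR, partner receptors and coregulators (0.06), 1 of 34 for cytosolic ribosomal proteins (0.10) and 1 of 21 for control genes (0.05). Among the members of fatty acid oxidation, Cpt2, the carnitine transferase of the inner membrane, had 3149, 3119 and 3091 bp for WT and 1229, 1527 and 993 bp for edKO (log2 difference -1.14, limma adjusted p = 0.192). Cpt1b, its muscle partner on the outer membrane, had 5295, 5318 and 5633 bp and 4193, 2338 and 3287 bp in all at its ends. Of its 2 regions tested, the one with the smaller p had a log2 difference of -0.57 (limma adjusted p = 0.276). Acsl1, which activates long-chain fatty acids, had 2506, 2200 and 2013 bp and 1132, 1376 and 1432 bp (-0.62, adjusted p = 0.576). Other enzymes of the pathway overlapped between genotypes: Hadh had 2210, 2205 and 2269 bp for WT and 2513, 1585 and 2139 bp for edKO. Cpt2, Cpt1b, Acsl1 and Hadh were chosen after their values were seen. The list was used with lower signal at several of its loci already known from these hearts, so its counts are no independent evidence.

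Median log2 differences of cell type markers were set beside those over all regions tested, 0.02, and over gene end regions tested, 0.06. The medians of cardiomyocyte and erythroid markers lay below both. That of smooth muscle and pericyte markers lay between them, and those of the other cell types lay above both. Of the gene end regions of fibroblast markers 0 of 13 were separated, with a median log2 difference of 0.13, of endothelial markers 0 of 10 (0.08) and of smooth muscle and pericyte markers 0 of 5 (0.04). Of leukocyte marker regions 0 of 5 were separated (0.08); Cd68 and Cd79a among these genes were called at the finish in all hearts and at the start in none. Of epicardial marker regions 1 of 3, at Tbx18, had all edKO hearts higher (0.07), of neural and Schwann markers 0 of 3 (0.07), and the single erythroid region, at Klf1, had a difference of -0.06 and was not separated. Of cardiomyocyte marker regions 2 of 13 had all edKO hearts lower, with a median of 0.01. Over all regions tested, 7.12% had all edKO hearts lower and 1.14% had all edKO hearts higher. Among gene end regions tested these shares were 3.79% and 1.29%. The part of cell composition in the differences at fatty acid oxidation genes was not tested.

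Gene end regions called in one genotype only were few. In all 3 WT and no edKO heart, 59 of the 13720 were called (0.430%), where the share over all union regions was 1.07%. In all 3 edKO and no WT heart there were 3, where the share was 0.0732% over all. Among gene end regions called in exactly 3 hearts, 12.5% were WT-restricted, against 14.2% among all such regions. The WT-restricted regions were narrow and ranked low, with a median width of 663 bp and a median fold percentile of 32.9, and 10 of them averaged above the 50th percentile. Of the 59, 33 touched a start, 20 a finish without a start and 6 an end of unknown strand. The counts were also taken with single hearts left out. The rule then asks for fewer hearts, so a rise in these counts is built in. WT-restricted regions numbered 137, 94 and 114 without WT 1, 3 and 4 and 193 without edKO 6, and edKO-restricted ones 33 without edKO 3, 15 without edKO 1 and 7, 14 and 5 without WT 1, 3 and 4. With equally long lists they numbered 30 and 8.

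The highest ranked WT-restricted regions were at Oscar, Tspan3, Acot4, Plin5, Lgals7, and Armh2 with Ripor2. At the finish of Oscar, an immunoglobulin-like receptor of osteoclasts, the called length was 1440, 1858 and 1437 bp in the WT hearts. At Acot4, a peroxisomal acyl-CoA thioesterase in the Acot cluster, it was 829, 828 and 774 bp, in a region over the start shown above and 972 bp from the outermost start. At the start of Plin5, a lipid droplet protein of oxidative tissue, it was 772, 1104 and 1121 bp. No edKO heart had a call in any of the 6. Other WT-restricted ends, named after their values were seen, were those of Eci2 (an isomerase of fatty acid oxidation), Hilpda (a lipid droplet protein), Fbp2 (muscle fructose bisphosphatase) and Pck1 (the gluconeogenic carboxykinase, at its finish). At Hilpda 623, 802 and 999 bp were called in WT 1, 3 and 4. Among the edKO-restricted regions, that at Fndc1 had 618, 608 and 263 bp in edKO 1, 3 and 6, and that at Mymk (a muscle fusion protein) had 425, 267 and 662 bp.

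The starts of the deleted genes kept the mark in both genotypes. At the start of Rxra 4705, 4745 and 5004 bp were called in WT 1, 3 and 4 and 5098, 4150 and 5132 bp in edKO 1, 3 and 6. At the start of Rxrb, shared with Slc39a7, the values were 2689, 2776 and 2378 bp for WT and 2585, 2363 and 2853 bp for edKO. The genotypes overlapped at both. These starts lie in every cell of the heart, and a mark there does not check the deletion. At Rxrg, the third receptor gene, a region of 348 bp was called in edKO 6 alone.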

How the data were processed

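H3K27ac ChIP-seq of 6 hearts was used; the 6 input samples were not analysed here. Per the submitters' processing notes the tools were cutadapt, BWA, SAMtools and MACS2, without versions, on mm10 (GRCm38). The authors deposited 1 narrowPeak list per heart, so regions were called per heart. The deposited fold enrichment is a ratio to background, and the deposited significance columns are −log10 p-values and −log10 q-values; both are the authors' values and served only to rank or filter within a list. Positions are mm10 coordinates. Entries with the same start and end were merged into 1 region with several summits. Read depth per heart is not given in the sources used here, so no counting interval is printed, and a region missing from a list was not called.

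Regions were joined at 1 bp overlap and placed against RefSeq gene positions of GRCm38.p6. Strand and promoter sequence came from a RefSeq promoter table with several starts for 2660 genes; it matched 16457 of 20665 genes. Classes and sides were compared within hearts by exact two-sided sign-flip permutation, and genotypes by exact permutation or, per region, by limma 3.58.1 in R 4.3.3 (trend, robust) on log2(called bp + 200). Values were centred per heart on regions called in all 6 hearts, only regions averaging at least 500 bp were tested, and p was adjusted by Benjamini-Hochberg over all 31066 tested. The code was tested on simulated data. Python 3.11.15, numpy 2.4.6, pandas 2.3.3 and matplotlib 3.10.9 were used.

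Named regions are the 10 shorter and 6 longer ones in edKO with separated genotypes and the smallest unadjusted p, the 6 highest ranked restricted to a genotype, the 8 widest and the 6 highest in fold percentile called in all hearts, the longest and shortest of each of 21 gene lists, and the RXR genes. The members and lists were chosen with earlier results of these data known. Alternatives were other distances, joins, thresholds, list lengths, pseudocounts, filters, centrings and terms, and each heart left out. Assignment by the middle of a region was added after the data were seen. Some named regions are not reported here.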

Additional observations from a re-analysis of the deposited data

How the results depend on the processing

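The number of gene end regions was 13720 and lay between 9311 and 16298 under the alternatives. The differences in width, fold percentile and sharing, between gene ends and the other classes and between starts and finishes, kept their direction and their exact p under every alternative that uses 6 hearts. For sharing the values of the 6 hearts are not independent, so its p carries no weight of its own. The difference in summits did not: gene ends minus inside genes was 0.153 with peaks of −log10 q of at least 5 and 0.0483 by the middle of the region. Start minus finish was 0.190 within 500 bp, 0.0172 with the stricter peaks and 0.137 by the middle. Values without 1 heart have no test, since the smallest exact p then exceeds the threshold. Among genotype summaries, the width difference was -14.5 bp with equally long lists, against 44.0 bp, and from -118.5 to 149 bp without 1 heart. The share called in every heart was 81.3% within 500 bp, 68.5% within 2 kb, 82.5% with regions up to 500 bp apart joined, 80.9% with the stricter peaks and 84.4% at starts only. WT-restricted regions numbered 38 with the stricter peaks, 30 with equal lists, 33 at starts only and 68 to 193 without 1 heart. edKO-restricted regions numbered 6 within 2 kb, 1 when joined, 8 with equal lists, 1 at starts only and 3 to 33 without 1 heart. The restricted counts without 1 heart rest on a looser rule, since fewer hearts have to meet it.

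Gene end regions called shorter by limma numbered 3, and 5 within 2 kb, 0 when joined, 0 with the stricter peaks, 0 with equal lists, 0 and 8 with 50 and 1000 bp added, 46 with no length filter, 7 with quantile normalization, 0 with the Xist term and 0 to 4 without 1 heart. Over all regions the count was 21, and in the same order 9 when joined, 1 with the stricter peaks, 0 with equal lists, 4 and 74 with 50 and 1000 bp added, 529 with no filter, 11 from 1000 bp, 11 without centring, 40 with quantile normalization, 1 with the Xist term and 1 to 34 without 1 heart. Longer ones appeared only with no filter, 2 at gene ends and 42 in all. With the replicate block (numbers 1 and 3 occur in both genotypes), limma called 0 at gene ends and 0 in all, with 1 residual degree of freedom; same-numbered hearts correlated at 0.089 and 0.086, so the numbers were not taken as pairs. The cause of these changes was not tested. Depth per heart is unknown and limits every statement that a region was not called.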

Other observations

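Some regions outside the gene end set lay at other starts. Of the 40177 regions inside genes, 2112 (5.26%) lay within 1 kb of a RefSeq start in the promoter table, and 62.7% of these were called in all 6 hearts, against 24.4% of the other regions inside genes. Between genes and far from them, 474 of 8996 lay near such a start, with 47.5% and 23.7% called in all hearts. By chromosome, the share of protein-coding genes with a called end in all 6 hearts ranged from 43.4% on chromosome 7 to 62.0% on chromosome 11.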
